A study of Rattus norvegicus with 24 samples.

Results

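The 50 targets whose name is Krt followed by digits alone were examined across 24 areas of diabetic rat skin wounds, out of 19963 targets measured in each area. They are the keratin genes of the panel apart from Krt6a, Krt6b, Krt33a and Krt33b, whose names end in a letter. All 50 names equal a gene symbol of the rat RefSeq annotation, which places 25 of them on chromosome 7 and 25 on chromosome 10. Keratins build the intermediate filaments of epithelial cells, as obligate pairs of a type I and a type II chain. In skin the pair in use marks the layer: Krt5 and Krt14 in basal keratinocytes, Krt1 and Krt10 in the layers above, Krt16 and Krt17 with Krt6a and Krt6b in keratinocytes that migrate or divide at a wound edge, and others in the hair follicle. Keratins are therefore read as a measure of how much epithelium a piece of tissue holds.

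The wounds were splinted full-thickness defects of 8 mm in male Sprague-Dawley (SD) rats, made diabetic with streptozotocin (STZ) at 5 weeks of age. They were taken at day 7. The treatments were CuNZ@Gel, Gel and Sham, and every group was diabetic. The labels give neither what the gels are made of nor what Sham wounds received. Each treatment had 2 numbered specimens, each specimen 2 regions (mac1 and mac2, here region 1 and region 2), and each region 2 segments, so that a treatment had 8 areas. Areas were measured by GeoMx spatial profiling of fixed, paraffin-embedded sections: probes for RNA were hybridised to the tissue, an area was outlined by its immunofluorescence, and light released the probe tags of that area for sequencing. The labels name neither the antibodies nor what separates Segment 1 from Segment 2, do not spell out "mac", and do not say that a specimen is an animal. The choice of regions, and so the distance of an area from the wound edge, is not given in the sources used here.

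Values are the deposited signal, scaled so that areas share a 75th percentile of 12.3. Recovered totals ran from 86386 to 1476512 counts per area (median 340374), and Segment 2 was the shallower segment in 11 of 12 regions. No target was listed at 0. One Gel area, Segment 2 of region 2 of specimen 1, stood apart: it had the only 75th percentile that differed (12.1) and the highest negative probe (5.42, against a median of 3.37 over areas). The lowest value of an area was taken as 1 count and lay between 0.240 and 3.07. Whether it also stands for targets without any count was not tested. A median of 38% of the keratins stood at 1 count in Segment 2 areas, against 2% in Segment 1 areas. Among 1116 odorant and vomeronasal receptor targets (Olfr, Vmn1r and Vmn2r), genes known mainly from sensory neurons, these shares were 40.4% and 2.87%. Whether wound skin uses any of them was not tested. The background of an area was the 99th percentile of those receptor targets, which ran from 11.4 to 21.6 (median 14.3). A target was taken to be above background when it exceeded this value in at least 4 areas. Each target is read through its own probe, so signals of different genes are not on one scale of abundance.

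By that rule 0 of the 50 keratins were above background, beside 1.7% of the receptor targets themselves and 27.8% of all targets. Of the 1200 keratin values, 9 exceeded the background of their area, or 0.75%, beside 0.930% of receptor values and 21.2% of the values of all targets. These 9 values came from 5 keratins: Krt13, Krt17, Krt18 and Krt40 in 2 areas each and Krt86 in 1. The other 45 keratins exceeded background in 0 of 24 areas. Of the 9 values 1 lay in CuNZ@Gel, 6 in Gel (5 of them in specimen 2) and 2 in Sham, out of 400 keratin values in each treatment. A value equal to the background did not count as exceeding it. Such ties occurred for Krt40 and Krt87 in CuNZ@Gel, Krt17 and Krt18 in Gel, and Krt7 in Sham, so this split depends on how ties are read. As a share, 5 of 50 keratins exceeded background in at least 1 area, beside 7.89% of receptor targets and 35.9% of all targets. Against the lower mark of the 95th percentile of receptor targets, 6 of 50 keratins exceeded it in at least 4 areas, beside 7.08% of the receptor targets. A low signal in a bulk area does not tell fewer cells of a type from less RNA per cell, and whether the probes, whose symbols follow mouse naming, read the rat transcripts was not tested.

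**Figure D1:**
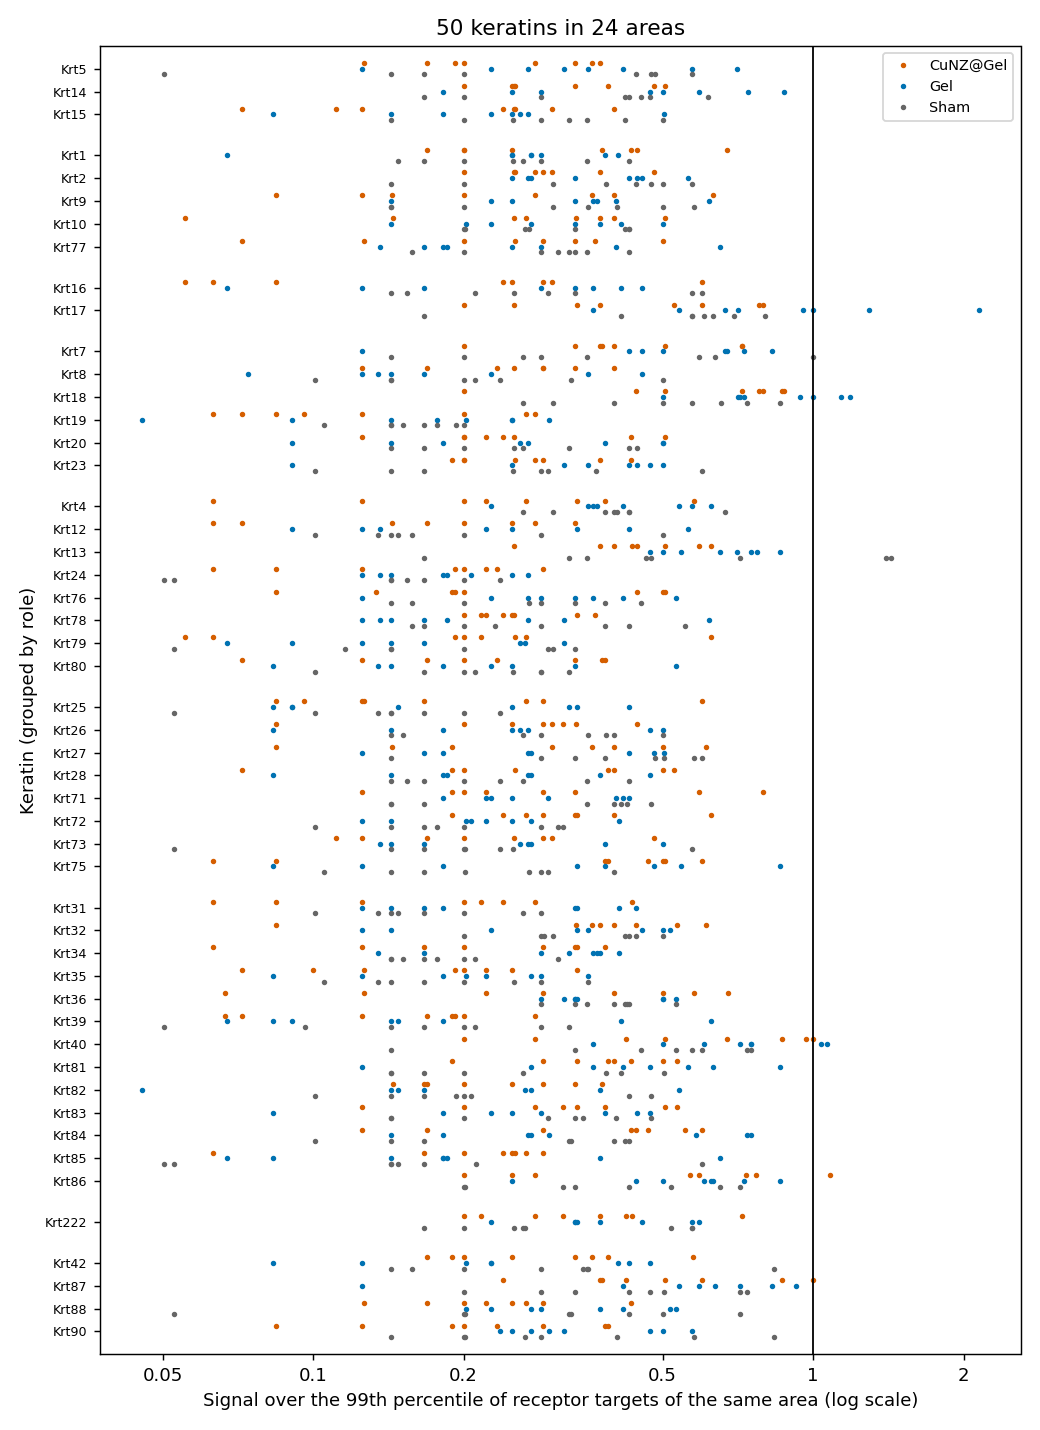
Each point is a keratin in 1 area, as its signal over the 99th percentile of the receptor targets of the same area (log scale); rows are the 50 keratins grouped by role, and colours are the treatments (8 areas each). The vertical line marks that percentile: 9 of 1200 points lie to its right, and the farthest is Krt17 in a Gel area at 2.14 times the percentile.

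The basal layer keratins were at background throughout. Krt14, the type I partner of the basal keratinocyte pair, averaged 4.20 and 5.38 in the CuNZ@Gel specimens, 5.47 and 8.40 in the Gel specimens, and 4.45 and 5.88 in the Sham specimens, each the mean of 4 areas. Krt5, its type II partner, averaged 3.72 and 3.50 in CuNZ@Gel, 5.11 and 5.33 in Gel, and 3.18 and 5.37 in Sham. Krt15, a keratin of basal cells and of the hair follicle bulge, lay between 2.89 and 5.31 over the 6 specimens. For Krt14, Krt5 and Krt15 the range of the Sham specimens overlapped that of at least 1 gel treatment. The highest of the 72 basal values was 14.3, for Krt14 in Segment 2 of region 2 of Gel specimen 2, where the background was 16.4.

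The keratins of the layers above, Krt1, Krt2, Krt9, Krt10 and Krt77, gave 0 of 120 values above background, with a highest value of 13.6. Krt1, the type II keratin of differentiating epidermis, ran from 2.45 to 8.58 in CuNZ@Gel areas (median 4.58), from 0.943 to 5.50 in Gel areas (median 4.09) and from 1.75 to 6.13 in Sham areas (median 3.37). Krt10, its type I partner, ran from 0.767 to 8.18 in CuNZ@Gel areas (median 4.77), from 2.04 to 8.18 in Gel areas (median 3.95) and from 2.89 to 6.13 in Sham areas (median 4.14). Krt2, a keratin of the upper layers, averaged 4.41 ± 0.175 in CuNZ@Gel, 5.38 ± 0.901 in Gel and 5.19 ± 0.170 in Sham (SD, n = 2 specimens). The treatments overlapped over their areas for all 3 genes.

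Of the wound edge keratins, Krt16 stayed at background and Krt17 gave the highest keratin value of the study. Krt16, the type I keratin of activated keratinocytes, averaged 4.86 and 1.82 in the CuNZ@Gel specimens, 3.76 and 4.02 in the Gel specimens and 5.15 and 3.91 in the Sham specimens, and 0 of its 24 values exceeded background. Krt6a and Krt6b, type II keratins of the same cells, also exceeded background in 0 areas. Krt17, a type I keratin of wound keratinocytes and of the follicle's outer sheath, stood at 14.8 and 12.9 in the Segment 1 areas and 30.7 and 16.4 in the Segment 2 areas of Gel specimen 2. In Gel specimen 1 it stood at 7.55 and 5.45 in Segment 1 and 10.9 and 10.2 in Segment 2. The 4 areas of Gel specimen 2 were thus higher than the 4 areas of Gel specimen 1.

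Krt17 values in the other treatments lay lower than in Gel specimen 2. In CuNZ@Gel they were 7.36, 6.75, 10.4 and 10.7 in Segment 1 and 3.07, 5.26, 5.45 and 5.45 in Segment 2. In Sham they were 8.66, 8.66, 8.66 and 4.91 in Segment 1 and 12.3, 2.45, 8.18 and 8.18 in Segment 2. Both treatments overlapped with Gel specimen 1. The value of 30.7, in region 1 of Gel specimen 2, rested on 15 counts (exact 95% Poisson interval 17.2 to 50.6, counting error only) against a background of 14.3, and equalled the highest receptor target of that area. It was the only one of the 9 values whose interval lay wholly over the background of its area. The 9 values were picked for exceeding that background, and the error of the background itself is left out. The intervals are thus a description and not a test of detection. The Segment 1 area of the same region gave 14.8 from 35 counts (interval 10.3 to 20.6) against a background of 11.4. Whether a Krt17 probe also reads its near relatives Krt14, Krt16 and Krt42 was not tested.

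Simple epithelium keratins gave 2 of 144 values above background, both Krt18 in Gel specimen 2. Krt18, the type I keratin of single-layered epithelia, had the highest mean over the 24 areas of all 50 keratins, 9.61, at the 97.0th percentile of the receptor targets' means. In Segment 1 it was 10.6, 9.20, 10.4 and 10.7 in CuNZ@Gel, 13.2, 10.9, 13.5 and 15.3 in Gel, and 3.61, 4.33, 8.18 and 8.76 in Sham. The Sham areas of Segment 1 all lay below those of both gel treatments, the nearest being 8.76 in Sham and 9.20 in CuNZ@Gel. These areas come from 2 specimens per treatment, and the share of all targets with such a separation was not determined. In Segment 2 it was 3.07, 12.3, 9.54 and 8.18 in CuNZ@Gel, 16.4, 10.2, 10.2 and 8.18 in Gel, and 6.13, 7.36, 8.18 and 12.3 in Sham, and there the treatments overlapped. The values above background were 13.5 (32 counts, interval 9.26 to 19.1) and 15.3 (25 counts, interval 9.92 to 22.6), against backgrounds of 11.4 and 13.5. The 16.4 in Segment 2 of Gel specimen 1 equalled the background of its area and was not counted as above it.

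Krt8, which pairs with Krt18 in the same filaments, averaged 3.61 and 4.14 in the CuNZ@Gel specimens, 4.13 and 2.00 in the Gel specimens, and 3.69 and 2.74 in the Sham specimens. It did not exceed background in any area, and its mean lay at the 18.0th percentile of the receptor means. Krt7, a type II keratin of glands and ducts, averaged 6.60 ± 1.41 in CuNZ@Gel, 7.73 ± 1.89 in Gel and 5.94 ± 0.948 in Sham (SD, n = 2 specimens). Krt19, a type I keratin of simple and follicular epithelium, had the lowest mean of the 50, 2.31, and Krt20, known from gut epithelium and Merkel cells, had a mean of 4.06. The treatment ranges of Krt7, Krt19 and Krt20 overlapped over areas.

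**Figure D2:**
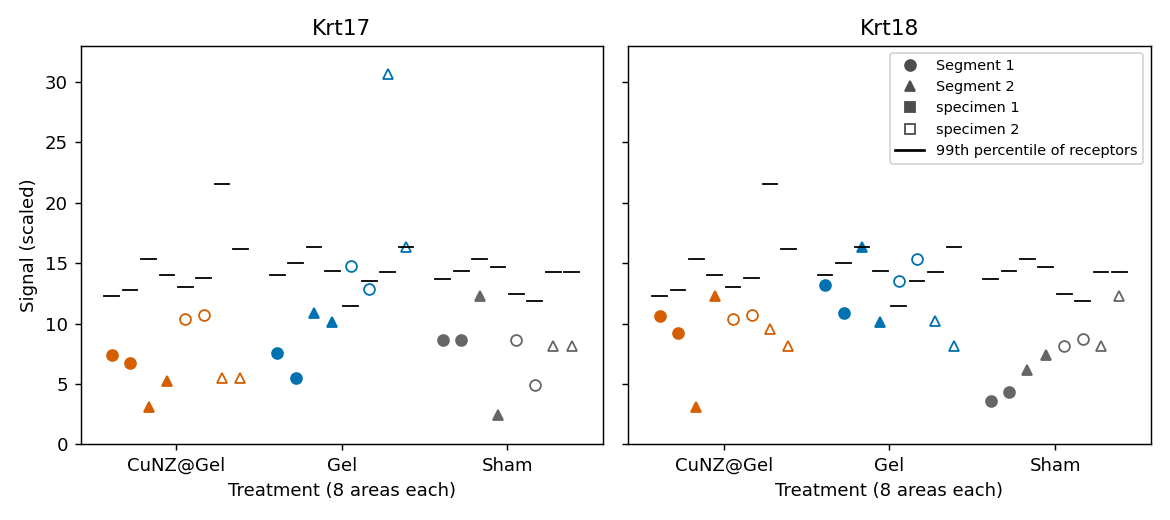
Signal of Krt17 and Krt18 in each of the 8 areas of a treatment; circles are Segment 1, triangles Segment 2, filled points specimen 1, open points specimen 2, and short lines the 99th percentile of receptor targets in that area. Krt17 reaches 30.7 in 1 Segment 2 area of Gel specimen 2, and the Segment 1 values of Krt18 in Sham (3.61 to 8.76) lie under those in CuNZ@Gel and Gel. The areas of a treatment come from specimens 1 and 2 only.

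The remaining values above background belonged to Krt13, Krt40 and Krt86, which are named because of those values. Krt13, a type I keratin of mucosal stratified epithelium, stood at 21.5 (7 counts, interval 8.63 to 44.2) and 20.4 (10 counts, interval 9.80 to 37.6) in a Segment 2 area of each Sham specimen. Its other 6 Sham areas did not exceed background, and its Sham specimens averaged 8.86 and 10.1, beside 6.17 and 6.93 in CuNZ@Gel and 8.92 and 9.98 in Gel. Krt40 and Krt86 are hair keratins. Krt40 gave 15.2 (36 counts) in Gel specimen 1 and 11.8 (28 counts) in Gel specimen 2, at most 1.06 times the background. Krt86 gave 14.2 (15 counts) in CuNZ@Gel specimen 2, at 1.08 times the background. The intervals of all 5 values included the background.

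The 13 hair shaft keratins, which harden the growing hair, gave 3 of 312 values above background (0.962%, beside 0.930% of receptor values), all of Krt40 or Krt86. The 8 keratins of the inner and companion root sheath (Krt25 to Krt28, Krt71 to Krt73 and Krt75) gave 0 of 192, with a highest value of 12.3. The 8 keratins of mucosal and other stratified epithelium gave 2 of 192, both Krt13. Krt222, an atypical member without the usual filament-forming parts, and Krt42, Krt87, Krt88 and Krt90, to which no role was assigned, gave 0 of 24 and 0 of 96.

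Set among the receptor targets, the keratins filled the same range. The means over 24 areas ran from 2.31 (Krt19) to 9.61 (Krt18) with a median of 4.29, and as percentiles of the receptor means they ran from 1.34 to 97.0 with a median of 46.3. By that measure 22 of 50 keratins lay at or over the 50th percentile, 4 at or over the 95th (Krt13, Krt17, Krt18 and Krt40) and 2 under the 5th. The mean over the 50 keratins lay over that of the receptor targets in 7 of 24 areas, 3 of them in Gel specimen 2, and under it in 17. In no area did a keratin exceed the highest receptor target.

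The mean keratin signal was 4.52 ± 0.220 in CuNZ@Gel, 5.08 ± 0.201 in Gel and 4.29 ± 0.0519 in Sham (SD, n = 2 specimens). Specimen by specimen it was 4.37 and 4.68 in CuNZ@Gel, 5.22 and 4.93 in Gel, and 4.32 and 4.25 in Sham. The first Gel value rested on the area that stood apart, at 6.86, since the other 3 areas of that specimen had 4.64, 4.85 and 4.52. Without that area the specimen averaged 4.67 and Gel 4.80 ± 0.186. The receptor mean was 4.94 ± 0.0578 in CuNZ@Gel, 5.10 ± 0.901 in Gel and 4.35 ± 0.0863 in Sham. As a ratio of keratin to receptor mean the treatments stood at 0.916 ± 0.0346 in CuNZ@Gel, 1.00 ± 0.142 in Gel and 0.987 ± 0.00579 in Sham, so the Gel specimens (0.904 and 1.10) lay on both sides of the Sham ones (0.983 and 0.991). Without the same area the Gel ratio was 0.991 ± 0.161.

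**Figure D3:**
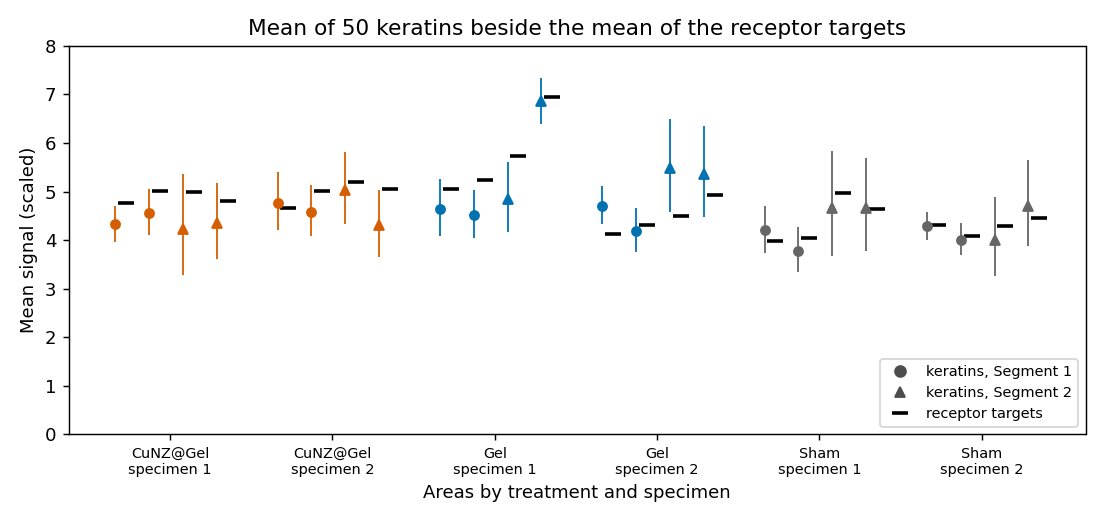
Mean signal of the 50 keratins in each area (circles Segment 1, triangles Segment 2), beside the mean of the receptor targets in the same area (black dashes). Bars are exact 95% Poisson intervals of the summed recovered counts, with the lowest value of an area taken as 1 count. They cover counting error only. Areas are ordered by treatment and specimen; keratin means run from 3.78 to 6.86 and receptor means from 3.98 to 6.95.

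The spread of the keratins within the study was similar in size to that of the receptor targets. Between the 2 regions of a specimen, in the same segment, the median absolute difference of log2(signal + 1) was 0.51 for keratins and 0.49 for receptors. Between the 2 segments of a region it was 0.56 and 0.54. Between means of 4 areas it was 0.24 and 0.30 for the specimens of a treatment, and 0.26 and 0.30 for specimens of different treatments. For keratins the spread between treatments was thus of the size of that between specimens of 1 treatment.

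The treatment comparisons ask whether a gel changed the epithelial signal of the wound areas. They were fitted with limma on log2(signal + 1) of specimen means for all targets that passed a filter on low values. The filter kept 49 of the 50 keratins and left out Krt24, whose mean was 2.38. With Benjamini-Hochberg adjustment over 19728 targets and a threshold of 0.05, 0 of 49 keratins were called between CuNZ@Gel and Sham, where 1.31% of all targets were called. Between Gel and Sham 0 were called, beside 2.42% of all targets, and between CuNZ@Gel and Gel 0, beside 0.943%. The smallest adjusted p-values among keratins were 0.477 (Krt72), 0.214 (Krt18) and 0.249 (Krt17) in that order of comparisons.

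At an unadjusted limma p under 0.05 the 3 comparisons held 0, 3 and 2 keratins, beside 10.6%, 12.1% and 6.7% of all targets. edgeR on the recovered counts called 0 keratins in each, beside 0.917%, 1.87% and 0.811% of all targets. At an unadjusted edgeR p under 0.05 there were 0, 5 and 1, beside 8.92%, 11.6% and 5.4% of all targets. DESeq2 called 0 among the 7, 7 and 8 keratins to which it gave an adjusted p, and 59, 152 and 55 of all targets. Without the Gel area that stood apart, limma called 0 keratins in each. The keratins' log2 changes had a median of 0.06 for CuNZ@Gel against Sham (from -0.55 for Krt4 to 0.58 for Krt72), beside 0.04 for all targets and 0.15 for the receptors. For Gel against Sham the median was 0.12 (from -0.36 for Krt27 to 0.71 for Krt18), beside 0.06 for all targets and 0.19 for the receptors. For CuNZ@Gel against Gel it was -0.11 (from -0.82 for Krt17 to 0.46 for Krt72), beside -0.02 and -0.04. The 95% intervals of single keratins extended 0.51 to 0.60 to either side, and none reached 2 log2 units. Changes on this scale understate those of low targets.

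Krt18 had a log2 change of 0.71 for Gel against Sham (SE 0.28, limma adjusted p = 0.214) and 0.30 for CuNZ@Gel against Sham (adjusted p = 0.765). In the Segment 1 areas alone the Gel against Sham change was 1.05 and was called (limma adjusted p = 0.0222), with 1.85% of all targets called in that fit. In the Segment 2 areas alone it was 0.36 (adjusted p = 0.883). CuNZ@Gel against Sham in Segment 1 was 0.71 (adjusted p = 0.274). The change over all areas also depended on the Sham specimens: for Gel against Sham it was 0.34 without Sham specimen 1 (limma adjusted p = 0.905) and 1.07 without Sham specimen 2 (adjusted p = 0.0623). Its treatment by segment interaction did not pass (limma adjusted p = 0.928), so the treatment change was not shown to differ between segments. The summed smooth muscle and pericyte markers were lower in the same Gel specimens, at 59.4 and 252 in Gel against 908 and 740.1 in Sham, and the summed fibroblast markers stood at 3866 and 9203 in Gel against 14215 and 19182 in Sham. The part of these in the Krt18 values was not tested.

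Krt17 had a log2 change of 0.68 for Gel against Sham (SE 0.28, limma adjusted p = 0.269), -0.82 for CuNZ@Gel against Gel (SE 0.28, adjusted p = 0.249) and -0.15 for CuNZ@Gel against Sham (adjusted p = 0.913). With Gel specimen 1 left out, so that Gel rests on specimen 2 alone and its spread is taken from the other groups, the first 2 were 1.18 (adjusted p = 0.0194) and -1.33 (adjusted p = 0.00596). In those fits 1.68% and 1.15% of all targets were called. With Gel specimen 2 left out instead, the same changes were 0.17 (limma adjusted p = 0.832) and -0.32 (adjusted p = 0.868), so the Krt17 changes rested on Gel specimen 2. In Segment 1 areas alone they were 0.30 and -0.12, and in Segment 2 areas alone 1.06 and -1.53, with none of these 4 called. Both comparisons share the Gel specimens. The summed epithelium markers of Gel specimen 2 (33.3) lay under those of Gel specimen 1 (34.8), beside 29.2 and 25.6 in CuNZ@Gel and 26.0 and 30.8 in Sham. These markers were all at background, and Gel specimen 1 holds the area that stood apart. The receptor mean was 4.47 in Gel specimen 2 and 5.74 in Gel specimen 1, so these sums do not rank the specimens by epithelium.

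**Figure D4:**
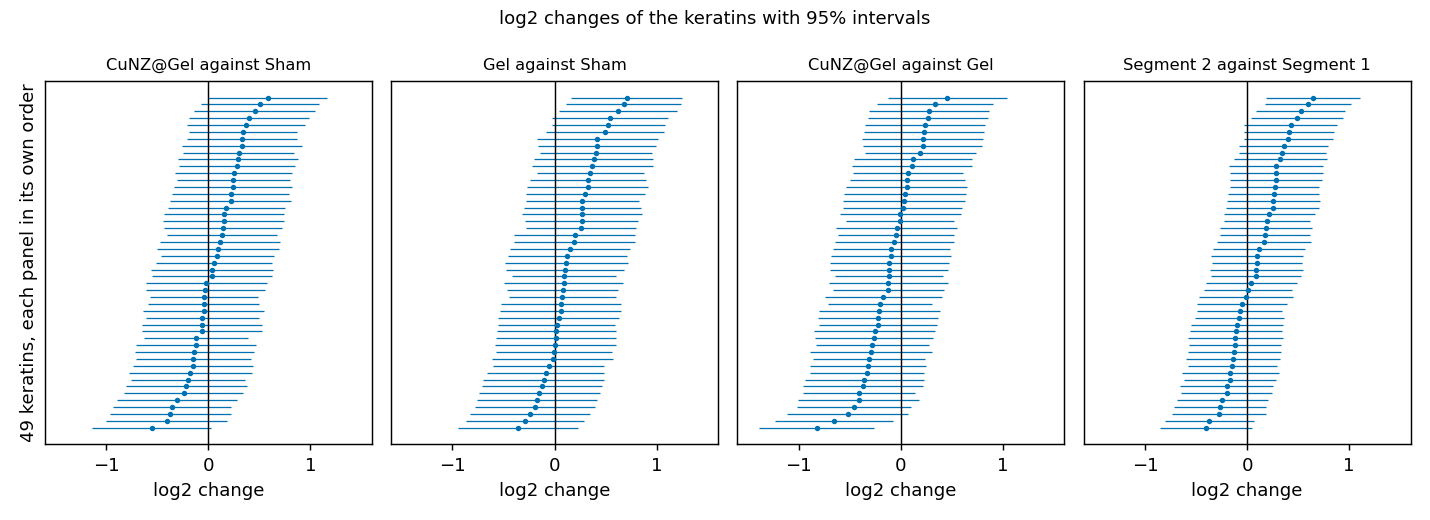
log2 changes of 49 keratins with 95% intervals (limma, log2(signal + 1)) for the 3 treatment comparisons and for Segment 2 against Segment 1; each panel has its own order from lowest to highest. The points lie between -0.82 and 0.71, and 0 keratins were called in each panel.

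Segment 2 against Segment 1 asks whether one kind of area held more epithelial signal. Of the keratin values, 4 of 600 in Segment 2 and 5 of 600 in Segment 1 exceeded background. Of all targets a median of 20.0% did so in Segment 2 areas and 23.7% in Segment 1 areas. The background itself had a median of 15.0 in Segment 2 and 13.3 in Segment 1. With the specimen as a block, limma called 0 of 49 keratins, beside 1.93% of all targets, and 4 had an unadjusted p under 0.05 (15.7% of all targets). These were Krt10 with a log2 change of 0.64 (SE 0.23, adjusted p = 0.136), Krt39 with 0.60 (adjusted p = 0.128), Krt12 with 0.53 (adjusted p = 0.209) and Krt85 with 0.49 (adjusted p = 0.266). edgeR called 0, beside 1.69% of all targets, with 6 at an unadjusted p under 0.05, beside 14.3%. Krt10 averaged 5.63 in Segment 2 and 3.27 in Segment 1. The 12 Segment 2 areas ran from 2.04 to 8.18 (median 6.03) and the 12 Segment 1 areas from 0.767 to 5.77 (median 3.21), so the segments overlapped. In a Segment 2 area 1 count was worth a median of 2.04 in signal, against 0.647 in Segment 1. The part of this floor in the difference was not tested.

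The keratins' median log2 change between Segment 2 and Segment 1 was 0.10, beside 0.09 for the receptors and -0.01 for all targets. The treatment by segment interaction was called for 0 of 49 keratins (0.0507% of all targets), with 1, Krt17, at an unadjusted p under 0.05, beside 5.65% of all targets, and edgeR called 0 (0.071% of all targets) with 2 at that level (5.79%). The smallest limma adjusted p was 0.854.

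Other genes of the epithelium were mostly at background too. Of 40 genes for junctions, basement membrane attachment, cornification and epithelial transcription, 32 exceeded background in 0 areas. Of all targets only 35.9% exceeded it in at least 1 area. In at least 4 areas 4 of the 40 genes exceeded it, beside 27.8% of all targets. The 4 were Plec, the cytolinker plectin (24 areas, mean 143), Itga6, the laminin receptor subunit alpha 6 (9 areas, mean 14.7), Tgm1, a transglutaminase of cornification (5 areas, mean 10.5), and Dst, the cytolinker dystonin (4 areas, mean 9.01). Plec, Itga6 and Dst are also used by cells outside the epithelium. The 8 fixed epithelium markers (Krt5, Krt14, Cdh1, Epcam, Trp63, Dsp, Sfn and Perp) exceeded background in 0 areas each. All of these markers are already among the keratins or the 40 genes, so they add no new gene. The summed signal of the 8 markers ran from 24.5 to 33.7 in CuNZ@Gel areas, from 24.5 to 45.7 in Gel areas and from 22.1 to 33.7 in Sham areas.

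Of the 39 of these 40 genes that were tested, 0 were called in each treatment comparison. Of all targets 1.31% (CuNZ@Gel against Sham), 2.42% (Gel against Sham) and 0.943% (CuNZ@Gel against Gel) were called. Between segments 2 were called, beside 1.93% of all targets. Both were lower in Segment 2: Itga6 with a log2 change of -1.12 (SE 0.19, limma adjusted p = 6.2e-05) and Plec with -0.39 (SE 0.09, adjusted p = 0.010). Among 9 hair follicle genes 0 were above background and 0 were called. Of 30 keratin-associated protein targets, components of the hair shaft, 1 was above background, Krtap10-10, in 18 areas with a mean of 19.1. The share above background over all targets was 27.8%.

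Markers of other cells were read in the same areas. Of 8 macrophage markers 5 exceeded background in all 24 areas (Cd68, Csf1r, Lyz2, C1qa and Mrc1, with means from 50.1 to 220), and of 8 fibroblast markers 7 were above background, among them the collagen gene Col3a1 (mean 8319) and Lum (mean 1456). Vim, the intermediate filament gene of mesenchymal cells, named after its values were seen, exceeded background in 24 of 24 areas, from 746 to 1993. Smooth muscle and pericyte markers were above background for 4 of 6, T cell markers for 2 of 4, skeletal muscle markers for 2 of 5, and endothelium markers for 1 of 7. Neutrophil and adipocyte markers were so for 1 of 4 each, and Schwann cell markers for 0 of 4. By the same rule 27.8% of all targets were above background.

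A target at background does not show that its RNA was absent. Adgre1, Cd14 and Itgam, which macrophages are known to express, exceeded background in 0 areas, as did the endothelial gene Pecam1. Dcn, the fibroblast proteoglycan decorin, did so in 3 areas, with a mean of 10.6. Among the keratins 0 of 50 stood above background, beside 5 of 8 macrophage markers, 7 of 8 fibroblast markers and 27.8% of all targets.

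**Figure D5:**
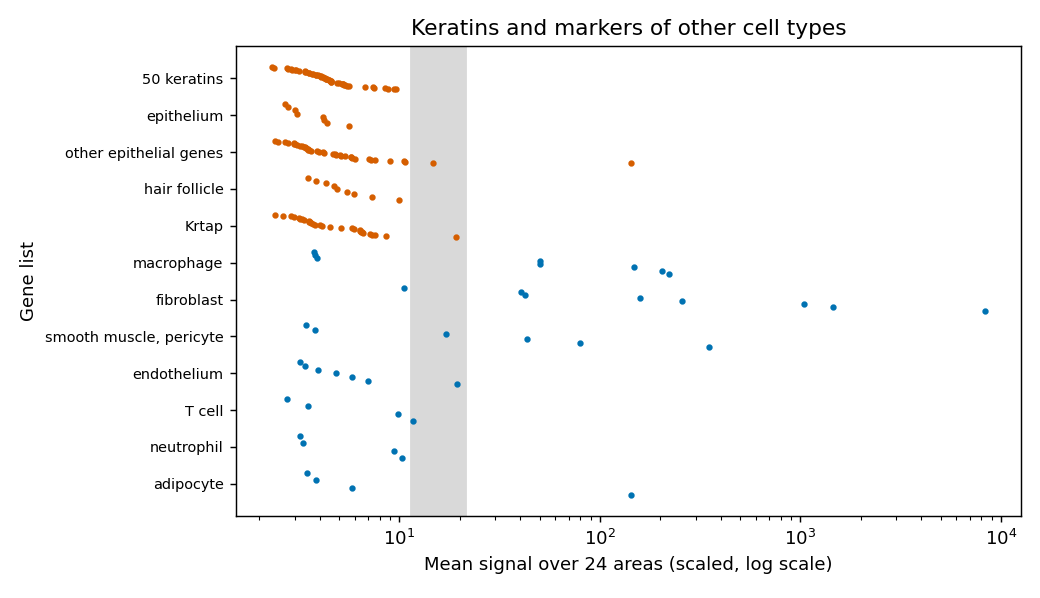
Mean signal over the 24 areas (log scale) of each gene in the keratin set, the other epithelial lists (orange) and marker lists of other cell types (blue). The skeletal muscle and Schwann cell lists are not drawn. The grey band spans the 99th percentiles of the receptor targets (11.4 to 21.6). All 50 keratin means lie left of the band, between 2.31 and 9.61, while macrophage and fibroblast lists reach 220 and 8319.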

How the data were processed

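The signal values were deposited by the authors, 1 file per area with a value for each of 19963 targets, of which 1 is a negative probe. GeoMx RNA probes, hybridised to fixed, paraffin-embedded sections, were used per the labels' protocols. How tags were counted, probes filtered and values scaled is not given in the sources used here. From the values, 23 of 24 areas had the same 75th percentile. Dividing by the lowest value of an area gave whole numbers (tolerance 0.01) for 99.98% to 99.995% of its targets, and these served as recovered counts.

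The mean log2(signal + 1) of the 4 areas of a specimen entered one limma fit over all 6 specimens (version 3.58.1, R 4.3.3), with trended and robust empirical Bayes moderation. Segments were compared on means per specimen and segment, with the specimen as a block, and the interaction by an F test. The filter required a signal over the negative probe in 4 or more areas (19728 targets), and adjusted p-values are Benjamini-Hochberg over these. The limma fit called 259 targets for CuNZ@Gel against Sham, 478 for Gel against Sham and 186 for CuNZ@Gel against Gel. edgeR 4.0.16 (quasi-likelihood) and DESeq2 1.42.0 were run on recovered counts summed per specimen as alternatives, and the plan foresaw the count test only where counts were held. The spread is largely pooled over targets, and nothing says that specimens are separate animals, so p-values may be too small and measure the spread between specimens only. The fits were tested on simulated data. That simulation covered limma for Gel against Sham, with changes placed only in targets above background and no difference between specimens of a treatment. Those targets include no keratin, so it does not show whether a keratin's change would be called.

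Keratins named whatever their values were Krt5, Krt14, Krt15, Krt1, Krt10, Krt2, Krt16, Krt17, Krt8, Krt18, Krt7, Krt19 and Krt20, besides any above background or called. The members, lists and rule were chosen with earlier results of these data known. Roles are textbook knowledge. The planned naming of targets most like a keratin above background found no keratin to start from. Symbols were matched to RefSeq (GRCr8) by equality. Probe sequences were not used here.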

Additional observations from a re-analysis of the deposited data

Results flagged for a closer look

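Of 51 sets of 8 areas (16 keratins and the keratin mean, in each treatment), 3 held an area far from the other 7, and chance alone does so in about 1 of 20 sets. All 3 were low values that stood at the lowest value of their area, taken as 1 count. Krt1, the type II keratin of differentiating epidermis, was 0.943 in Segment 1 of region 1 of Gel specimen 1, where the next lowest Gel area had 3.68. Krt18, the simple epithelium keratin, was 3.07 in Segment 2 of region 1 of CuNZ@Gel specimen 1, the shallowest area, beside 8.18 in the next. Krt7, a keratin of glands and ducts, was 2.04 in Segment 2 of region 2 of Gel specimen 2, beside 6.13 in the next. The mean over the 50 keratins held no such area.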

How the results depend on the processing

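The count of 0 keratins above background was also found after thinning every area to 86386 counts. Against the highest receptor target, in at least 12 areas, and with each specimen left out it was 0 too. These last settings could not raise the count, so they are no check on it. It was 6 against the 95th percentile of receptors (Krt87, Krt40, Krt18, Krt17, Krt86 and Krt13, beside 7.08% of receptors) and 5 in at least 1 area. The count of keratins called was 1 for Gel against Sham in Segment 1 areas alone (Krt18, log2 change 1.05), and ran from 0 to 1 with a specimen left out, for Gel against Sham and for CuNZ@Gel against Gel: without Gel specimen 1 it was 1 in each (Krt17, 1.18 and -1.33), and without Gel specimen 2 it was 0 in each (Krt17, 0.17 and -0.32). With a specimen left out the Krt18 change for Gel against Sham ran from 0.34 to 1.07, and with Segment 2 areas alone it was 0.36. The Krt18 change for CuNZ@Gel against Sham turned to -0.12 in Segment 2 areas alone and to -0.066 without Sham specimen 1, against 0.30 with all areas (range with a specimen left out -0.066 to 0.66). The cause was not tested. The other settings run kept every count at 0: CuNZ@Gel against Sham in 20 of 20, Gel against Sham in 18 of 20, CuNZ@Gel against Gel in 19 of 20, the segments in 16 of 16 and the interaction in 17 of 17. These include leaving out the Gel area that stood apart, chosen after its values were seen. With the specimen number as a replicate block 0 keratins were called in each treatment comparison (smallest limma adjusted p 0.465, 0.216 and 0.234). Over the targets above background, specimens with the same number did not deviate together (r = -0.032, 0.0037 and -0.025). Whether they share more than a number, with an effect on few targets, was not tested.

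Direction counts depended on the scaling in 3 of 4 comparisons. For Gel against Sham 37 keratins were higher and 12 lower as deposited, 23 and 26 after quantile normalization, and 24 and 25 after scaling to the median. Of all targets 57.8%, 50.6% and 42.1% were higher in these settings, in that order. For CuNZ@Gel against Sham it was 27 and 22, 21 and 28, and 25 and 24, beside 54.9%, 48.6% and 47.4% of all targets higher. For Segment 2 against Segment 1 it was 29 and 20, 27 and 22, and 22 and 27, beside 48.7%, 51.5% and 33.5%. For CuNZ@Gel against Gel more keratins were lower throughout (17 higher and 32 lower, 17 and 32, and 21 and 28). Of all targets 47.6%, 48.2% and 57.7% were higher there. Scaling to the median moved the median of all targets between Gel and Sham to -0.07, against 0.06 as deposited, and between segments to -0.13, against -0.01. Counts over all targets moved more. limma without trend and robust called 44, 176, 75 and 0 targets (CuNZ@Gel against Sham, Gel against Sham, CuNZ@Gel against Gel, segments), and DESeq2 called 59, 152, 55 and 142. Scaling to the median called 1326 between segments. A filter on targets above background leaves 0 keratins, and DESeq2 gave none an adjusted p between segments, so neither gives a value. Depth limits the keratins most in Segment 2, where a median of 38% stood at 1 count.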
